A study of Mus musculus with 12 samples.

Results

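The cytosolic ribosomal protein genes are the genes for the protein part of the ribosome that translates nuclear-encoded messages. They were taken by name, as symbols that begin with Rpl or Rps and a digit together with Rpsa, Rplp0, Rplp1 and Rplp2, without the Rps6k kinases and the names that end in -ps and a number. The names gave 86 genes, and 84 of them, out of 32285 genes in the table, had the required 50 UMIs (unique molecular identifiers, the counted RNA molecules). Rpl39l, with 96 UMIs, was the member nearest to that minimum, and the names left out were Rpl3l, with 6 UMIs, and Rpl10l, with 0. The members comprise 50 large-subunit names, 33 small-subunit names and Rps19bp1, which the name rule takes in although its product is a protein that binds Rps19 and not a ribosomal subunit. They held 36031734 of 118964380 UMIs, or 30.3%.

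The cells were T cells of mouse brains, measured by droplet single-cell RNA sequencing from the 5′ end of the transcript with T cell receptor sequencing of the same cells. All mice were females aged 9 months from a colony made by crossing hemizygous PS19 and hemizygous 5XFAD mice, and littermates of each genotype were used. The groups were PS-5X, which carries both transgenes (1 pool of 4 mice), 5XFAD, which carries mutant human amyloid precursor protein and presenilin transgenes (5XFAD-1 of 4 and 5XFAD-2 of 3 mice), PS19, which carries mutant human tau (1 pool of 4 mice), and WT, which carries neither (WT-1 of 10 and WT-2 of 8 mice). Tau expression in PS19 is driven by the mouse prion promoter, and the PS19 line came on a B6C3 background while 5XFAD came as a C57BL6 congenic line. Mice were perfused, brain tissue was digested, and CD4+, CD8+ and γδ+ cells were sorted and pooled by genotype, so the pool is the unit of replication. One sequencing run held 5XFAD-2 with WT-2, and another held the other 4 pools. PS-5X and PS19 had 1 pool each. In the amyloid and tau tests the p-values measure the spread between pools. In the tests of class, lineage and clone size, pool was a block, so the p-values measure the spread of the differences within pools.

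A ribosome holds a small subunit, which reads the message, and a large subunit, which joins the amino acids and carries the acidic P stalk (Rplp0, Rplp1 and Rplp2) that recruits elongation factors. Most vertebrate ribosomal protein messages begin with a C followed by an unbroken run of pyrimidines, the 5′ terminal oligopyrimidine tract, through which mTORC1 signalling sets their translation as a group. Naive T cells are small, quiescent cells known to hold many of these messages ready for the growth that follows activation, whereas effector cells turn a larger part of their messages over to cytokines, chemokines and granule proteins.

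Promoters are shown for members whose values stand out in the comparisons: Rps27 with its copy Rps27rt and its paralog Rps27l, which went against the other members, Rpl35 and Rps15a, which were among the most responsive, and Rpl38, which varied between pools. Each line gives 60 bases from RefSeq on build GRCm38.p6, 40 before and 20 after the annotated start, read 5′ to 3′. For Rps27l only the first RefSeq entry is shown. Capitals mark a stretch of at least 6 C or T bases read on from the first C within 10 bases of the annotated start that gives such a stretch. C or T bases just before that C stay in lower case, as in Rps27l, Rps15a and Rpl38, so the capitals need not be the whole pyrimidine run.
Rps27, chr3:90213629-90213688, minus strand: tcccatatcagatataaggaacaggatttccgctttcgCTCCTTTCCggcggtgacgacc
Rps27rt, chr9:114982720-114982779, minus strand: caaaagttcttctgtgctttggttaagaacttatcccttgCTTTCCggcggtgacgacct
Rps27l, chr9:66946046-66946105, plus strand: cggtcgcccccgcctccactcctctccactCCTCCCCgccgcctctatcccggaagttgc
Rpl35, chr2:39005112-39005171, minus strand: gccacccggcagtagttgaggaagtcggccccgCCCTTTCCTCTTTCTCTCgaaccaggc
Rps15a, chr7:118116128-118116187, minus strand: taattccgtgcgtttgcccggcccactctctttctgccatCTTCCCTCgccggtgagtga
Rpl38, chr11:114668540-114668599, plus strand: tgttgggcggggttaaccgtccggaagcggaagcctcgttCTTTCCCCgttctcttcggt
Such a stretch was found at the start of 21.9% of all 27025 genes in the RefSeq table, where a gene was counted if any of its entries had one. Only 64 of the 84 members (76.2%) had an entry, fewer than the 80% needed, so no share over the members is given. Rps27 and Rps27rt shared an unbroken run of 38 identical bases after the start, and 18 of 47 aligned bases matched before it. Reads from this pair can therefore be hard to separate, and the Rps27rt values are uncertain for that reason.

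The pools held 854 to 6373 barcodes with 5883210 to 38616794 UMIs each, and after filtering PS-5X kept the most cells, 5896, and WT-1 the fewest. Cells were clustered on other genes, with the members and the lists of translation genes left out, and clusters were placed in CD8, CD4 or γδ classes and in naive or non-naive states by marker genes. Clusters that met no marker rule held 8.21% to 21.5% of the cells of a pool and were not used. The γδ class was 1 cluster, with Trdc in 69.1% and Il17a in 42.3% of its cells. Another cluster, led by Fcer1g, Ncr1 and Klra1, had Trdc in 38.4% of its cells but met no marker rule. The members held 29.1% of its UMIs, so the γδ values below are not those of all cells with Trdc. Of the cells with both receptor chains, 563 of 1873 in 5XFAD-1 and 166 of 559 in WT-1 carried a receptor that was also found in another pool, as did 169 of 1759 in PS19 and 181 of 4331 in PS-5X. Among expanded non-naive CD8 cells these were 412 of 654 in 5XFAD-1, 79 of 96 in WT-1, 135 of 351 in PS19 and 170 of 1868 in PS-5X. No such receptor was found in 5XFAD-2 or WT-2, which were sequenced in the separate run. Whether such receptors are clones common to several mice or cells and molecules carried between libraries was not tested, and 149 of 17227 barcode sequences of kept cells occurred in more than 1 pool. Without WT-1, the counts of called members in the comparisons below differed by less than 1.5 times, except that CD4 clone size never included WT-1.

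Of the 5 broad classes, naive CD8 cells gave the highest share of their UMIs to ribosomal protein genes. The γδ class, the 1 cluster described above, gave the lowest. Within non-naive CD8 cells, however, a group of clusters lay above naive CD4 cells and a single cluster lay below γδ cells. The share was 40.2% ± 1.54 in naive CD8 cells, 30.3% ± 0.899 in non-naive CD8 cells, 37.1% ± 1.71 in naive CD4 cells, 25.3% ± 1.02 in non-naive CD4 cells and 20.8% ± 1.12 in γδ cells (SD, n = 6 pools each). Naive CD8 cells lay above non-naive CD8 cells in 6 of 6 pools, by 8.83 to 11.2 percentage points, and naive CD4 cells above non-naive CD4 cells in 6 of 6 pools, by 11.9 ± 1.32 points on average. Against non-naive CD8 cells the difference was −5.01 ± 0.946 points for non-naive CD4 cells and −9.48 ± 0.925 points for γδ cells, lower in 6 of 6 pools in both. The share is relative to all RNA, so the amounts behind it were compared as well: a naive CD8 cell held 1.28 to 1.56 times the member UMIs of a non-naive CD8 cell of the same pool, and 0.833 to 1.04 times its other UMIs. A γδ cell held 0.601 to 0.789 times the member UMIs of a non-naive CD8 cell and 1.00 to 1.20 times its other UMIs. Median UMIs per cell ran from 6153 to 8380 in naive CD8 cells and from 5007 to 7504 in non-naive CD8 cells, and mitochondrial UMIs were 1.37% to 1.66% and 1.12% to 1.36% of all UMIs in these classes. Within non-naive CD8 cells the share went with the number of UMIs per cell (Spearman's rho 0.49 to 0.63 across the cells of each pool), and the part of depth in the difference between classes was not tested beyond the value for cells of middle depth, 11.7 points between naive and non-naive CD8 cells.

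**Figure D1:**
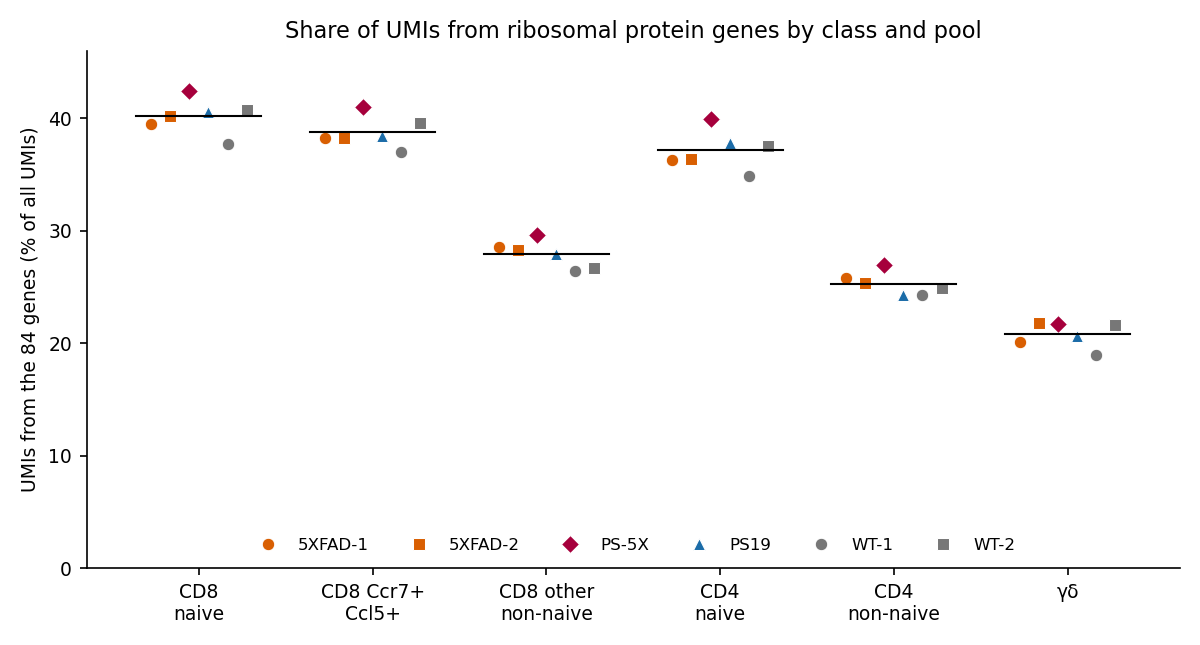
Share of all UMIs that came from the 84 ribosomal protein genes (y axis, %) in 6 classes of brain T cells, 1 point per pool, with a horizontal line at the mean of the 6 pools. Naive CD8 cells and the Ccr7+ Ccl5+ CD8 cells sit near 40%, other non-naive CD8 cells near 28%, and γδ cells between 19.0% and 21.8%.

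Non-naive CD8 cells were not uniform. Clusters in which Ccr7, a receptor for homing to lymph nodes, was detected in 70.1% or more of cells (30.4% or fewer in the other non-naive CD8 clusters), together with the effector chemokine Ccl5 in 97.9% or more, had a share of 38.8% ± 1.38, against 27.9% ± 1.21 in the other non-naive CD8 clusters (SD, n = 6 pools each). This division was made after the clusters were seen. In the fit of summed UMIs (edgeR quasi-likelihood test with Benjamini-Hochberg adjustment over all genes, called at an adjusted p below 0.05), 82 of 84 members were higher in the Ccr7+ Ccl5+ cells and 0 were lower, where 20.7% of all 10193 genes tested were called higher. The median log2 difference of the members was 0.69, and that of all genes was −0.01. Rps20 had 7828, 8597 and 10290.0 CPM as lowest, median and highest pool in the Ccr7+ Ccl5+ cells, against 3286, 3698 and 4377 CPM in the other non-naive CD8 cells. The pools of the 2 classes did not overlap, and the log2 difference was 1.23 ± 0.03 (SE; adjusted p = 5.05e-15). Here and below, CPM are UMIs scaled to a common library size (counts per 1e6, edgeR's TMM) within that comparison, so that a gene's CPM differ a little between comparisons. Rps27l differed by −0.14 (adjusted p = 0.168) and Rps19bp1 by 0.11 (adjusted p = 0.539), and these 2 were the members that did not pass. Rpl39l passed on 24 UMIs in the Ccr7+ Ccl5+ cells and 12 in the others. Of the main comparisons, it cleared the low-count filter only in this one and in γδ against non-naive CD8 cells. In both it did so through the class in which it was high, so its calls are not independent of the filter.

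At the low end, the cluster led by S1pr5, Cx3cr1 and Klrg1, genes of circulating effector CD8 cells, had a share of 18.0% ± 0.972, whereas the other non-naive CD8 clusters outside the Ccr7+ Ccl5+ group averaged 24.9% to 30.9%. Its median of 4079 UMIs per cell was also the lowest, against 4764 to 7565.5 in those other clusters. The Ccr7+ Ccl5+ clusters had the highest medians, 9123 and 8297. The part of depth in the shares of single clusters was not tested. The Foxp3 cluster of CD4 cells, marked by the regulatory T cell factor, averaged 21.9% over 4 pools.

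Between naive and non-naive CD8 cells, nearly every member of both subunits moved in the same direction. Of 83 members tested, 80 were higher in naive cells and 1 was lower, where 21.7% of all 10488 genes tested were called higher and 24.1% lower. The median log2 difference was 0.61 for the members, which is 1.53 times in linear terms, and 0.00 for all genes, and the middle of the members ran from 0.52 to 0.72 (25th to 75th percentile). By subunit, 48 of 49 large-subunit genes and 32 of 33 small-subunit genes were higher, with medians of 0.61 and 0.62. In 81 of 83 members all 6 pools had the same sign.

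Rps20, a protein of the small-subunit head, differed most. It had 8150.0, 9511 and 10769 CPM in naive CD8 cells, against 4101, 4593 and 4957 CPM in non-naive CD8 cells (lowest, median and highest pool). Every naive value lay above every non-naive value, with a log2 difference of 1.05 ± 0.03 (SE; edgeR adjusted p = 3.65e-16). Next came Rplp0, the base of the P stalk, with 8276, 9519 and 10950.0 CPM in naive cells, against 4653, 4960.0 and 5711 CPM in non-naive cells. Its pools did not overlap either, and the log2 difference was 0.91 ± 0.03 (SE). The other P stalk proteins rose less, Rplp1 by 0.73 and Rplp2 by 0.57 on the log2 scale. Rpl35, which lies at the exit tunnel for the new chain, rose by 0.88 and Rpl8, near the centre that joins amino acids, by 0.87, each in 6 of 6 pools. Rps6, the substrate of S6 kinase, rose by 0.74, and Rpl5 and Rpl11, which with 5S RNA can hold back Mdm2, by 0.75 and 0.59. The smallest rises that passed were those of Rpl13a (0.24, adjusted p = 2.27e-06) and Rps12 (0.26, adjusted p = 4.16e-07). In both, the pools of the 2 states overlapped. These 2 rises depended on the TMM scaling. Scaled by total UMIs alone, Rpl13a had 4070 ± 303 CPM in naive and 4029 ± 288 CPM in non-naive CD8 cells. On that scale Rps12 had 3561 ± 284 CPM in naive and 3482 ± 267 CPM in non-naive CD8 cells (SD, n = 6 pools).

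Rps27l, a paralog of Rps27 that in human cells is a target of p53, went the other way. It had 56.7, 65.9 and 79.8 CPM in naive CD8 cells, against 80.01, 85.8 and 91.9 CPM in non-naive CD8 cells (lowest, median and highest pool). It was lower in naive cells in 6 of 6 pools, with a log2 difference of −0.41 ± 0.07 (SE; edgeR adjusted p = 7.63e-05), while Rps27 rose by 0.56. The ratio of UMIs, which compares the classes and not the levels of the 2 genes, was 0.739 ± 0.0992 Rps27l UMIs per 100 Rps27 UMIs in naive CD8 cells, 1.58 ± 0.148 in the non-naive CD8 cells outside the Ccr7+ Ccl5+ group and 3.19 ± 0.426 in γδ cells (SD, n = 6 pools). Rpl7l1, a paralog of Rpl7, had 1.10 ± 0.128 UMIs per 100 of Rpl7 in naive CD8 cells, 2.01 ± 0.131 in the other non-naive CD8 cells and 3.16 ± 0.371 in γδ cells. Rpl22l1, the paralog of Rpl22 (which mouse αβ T cells need to develop), had 35.8 ± 2.89 UMIs per 100 of Rpl22 in naive CD8 cells, 31.0 ± 1.52 in those other non-naive CD8 cells and 24.4 ± 3.45 in γδ cells. Rpl36al had 31.9 ± 1.39 UMIs per 100 of Rpl36a in naive CD8 cells and 42.3 ± 3.11 in the same other non-naive CD8 cells. As single genes, Rpl7l1 and Rps19bp1 did not pass in the CD8 comparison (log2 differences of −0.09 and 0.02, adjusted p = 0.413 and 0.906).

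In CD4 cells the same contrast gave the same counts: 80 of 83 members were higher in naive cells and 1, again Rps27l, was lower, where 18.7% of all 9595 genes tested were called higher and 21.5% lower. The median log2 difference of the members was 0.78. Rps20 had 7599, 8428 and 10350.0 CPM in naive CD4 cells, against 3099, 3402 and 3944 CPM in non-naive CD4 cells, a log2 difference of 1.32 ± 0.04 (SE; edgeR adjusted p = 1.91e-24). It was followed by Rpl35 (1.14), the small-subunit protein Rps29 (1.13), Rpl35a (1.12), a gene mutated in human Diamond-Blackfan anaemia, and Rpl8 (1.08). All these genes had naive values above every non-naive value. Rps27l had 29.9, 50.8 and 58.3 CPM in naive CD4 cells, against 66.7, 89.7 and 101.7 CPM in non-naive CD4 cells, again without overlap, and differed by −0.83 ± 0.11 (SE; adjusted p = 7.65e-08). Across the 83 genes the naive differences of the 2 lineages went together (Pearson's r 0.95, Spearman's rho 0.93), as a description of genes measured in the same pools and libraries.

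**Figure D2:**
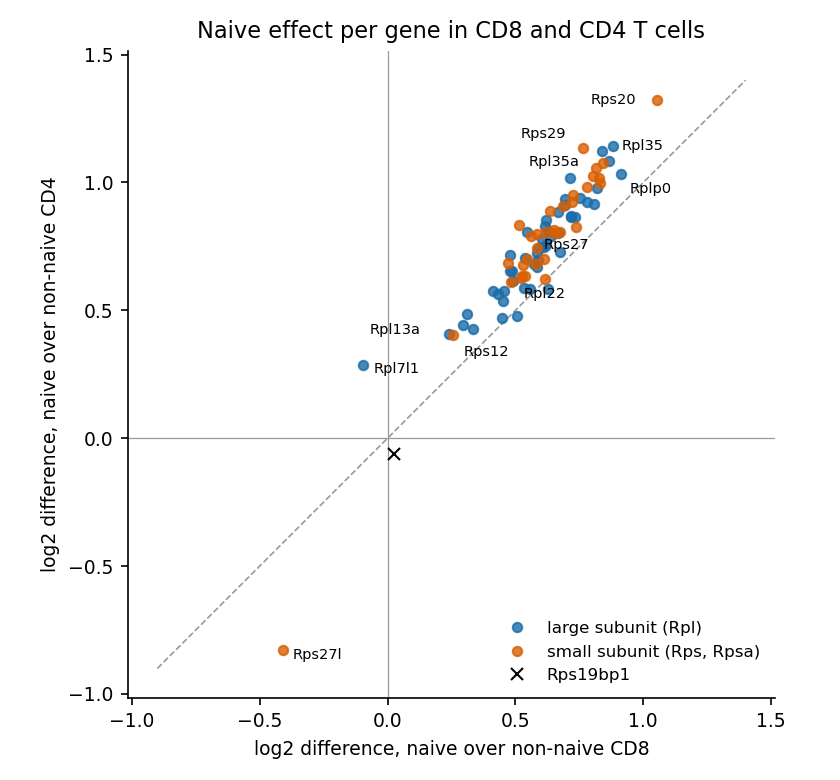
Log2 difference of each of 83 ribosomal protein genes between naive and non-naive cells in CD8 cells (x axis) and CD4 cells (y axis), 1 point per gene, large-subunit genes in blue, small-subunit genes in orange and Rps19bp1 as a cross; the dashed line marks equal differences. Most points lie above the line with Rps20 at 1.05 and 1.32, and Rps27l lies at −0.41 and −0.83.

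The naive difference was more positive in CD4 than in CD8 cells for 47 of 83 members and more negative for 1, Rps27l, by a test of the difference itself, where 4.49% of all 9882 genes tested were called more positive and 6.43% more negative. The gap was 0.37 ± 0.04 for Rps29, 0.32 ± 0.05 for Rps15a, 0.30 ± 0.05 for Rpl36a, 0.28 ± 0.04 for Rpl35a and 0.27 ± 0.04 for Rps20 (log2 ± SE), and −0.42 ± 0.12 for Rps27l (adjusted p = 0.0226). This count was not stable. With classes taken from marker UMIs of single cells, 5 members were more positive and 0 more negative (1.02% and 1.29% of all genes), in cells of middle depth 4 and 0 (2.28% and 4.74%), and with no pool block 1 and 1 (2.33% and 4.56%). With the Ccr7+ Ccl5+ clusters left out, an alternative chosen after seeing the data, 2 members were more positive and 5 more negative (4.11% and 6.99% of all genes), the median gap was 0.00 in place of 0.15, and Rps20 was at −0.05 (adjusted p = 0.496). The count of 47 was 23 without PS19 and 29 without 5XFAD-2.

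CD4 cells held less than CD8 cells in both states. Among non-naive cells, 81 of 83 members were lower in CD4 cells and 0 were higher, where 15.4% of all 10582 genes tested were called lower and 16.7% higher, and the median log2 difference was −0.34. Rps15a, a small-subunit protein, differed most, with 4122, 4494 and 5144 CPM in CD4 cells, against 6010.0, 6828 and 7917 CPM in CD8 cells. The pools did not overlap, and the log2 difference was −0.59 ± 0.03 (SE; edgeR adjusted p = 6.36e-11). Rpl36a (−0.56), Rps20 (−0.51), Rps12 (−0.50) and Rpl37 (−0.49) followed, each lower in 6 of 6 pools. Rps27l did not pass (−0.04, adjusted p = 0.67), nor did Rps19bp1 (−0.13, adjusted p = 0.433). With the Ccr7+ Ccl5+ CD8 clusters left out, 74 members were called lower, where 14.3% of all genes were, and the median was −0.18.

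Among naive cells the differences were smaller: 77 of 83 members were lower in CD4 cells and 0 higher, where 9.97% of all 9179 genes tested were called lower and 9.83% higher (19.8% in either direction), with a median log2 difference of −0.20. The count depended on the cells and the fit: in cells of middle depth 49 members were lower and 1 higher (6.76% and 7.21% of all genes), and with no pool block 21 were lower and 0 higher (6.18% and 6.24%). Rps27l had 26.8, 45.4 and 52.1 CPM in naive CD4 cells, against 54.0, 62.8 and 76.5 CPM in naive CD8 cells, and its difference of −0.45 ± 0.10 (SE; adjusted p = 0.000851) was the largest of the members. Rps12 (−0.35), Rpl32 (−0.32) and Rplp1 (−0.30) were lower in 6 of 6 pools although the ranges of the 2 lineages overlapped. Rps29 differed by 0.04 (adjusted p = 0.288).

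γδ cells, led by Trdv4, Cd163l1 and Il17a, genes of the interleukin-17-producing kind, had lower levels than non-naive CD8 cells as a whole. Against non-naive CD8 cells, 79 of 84 members were lower and 2 were higher, where 23.5% of all 10443 genes tested were called lower and 25.3% higher. The median log2 difference of the members was −0.64. Rps15a had 2761, 3228 and 3726 CPM in γδ cells, against 6079, 6898 and 8076 CPM in non-naive CD8 cells, a difference of −1.09 ± 0.05 (SE; edgeR adjusted p = 1.7e-13) with no overlap. Rps27 had 3246, 3465 and 3680.0 CPM in γδ cells, against 6631, 6776 and 7606 CPM in non-naive CD8 cells, a difference of −0.999 ± 0.0455 (log2 ± SE). Its copy Rps27rt (−1.09), Rpl37 (−0.90) and Rps13 (−0.87) also fell in 6 of 6 pools.

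The exceptions in γδ cells were few. Rpl10, which joins the large subunit late and sits near its transfer RNA sites, had 2346, 2572 and 3052 CPM in γδ cells, against 2379, 2818 and 3011 CPM in non-naive CD8 cells. Its pools overlapped over nearly their whole range (log2 difference −0.07, adjusted p = 0.246), while Rpl10 did rise by 0.72 in naive CD8 cells. Rps27l (0.17, adjusted p = 0.089) and Rpl7l1 (0.23, adjusted p = 0.0784) did not pass. Rps19bp1 was higher, with 23.6, 29.3 and 32.8 CPM in γδ cells, against 17.1, 18.9 and 21.8 CPM in non-naive CD8 cells (0.56 ± 0.13, SE; adjusted p = 0.000906). Rpl39l, the paralog of Rpl39 known from mouse testis, was called higher (2.80 ± 0.46, SE; adjusted p = 3.47e-05) on few molecules: 27 UMIs in all γδ cells and 36 in all non-naive CD8 cells, where 24 of the 36 came from the Ccr7+ Ccl5+ clusters. Here too it cleared the low-count filter through the class in which it was high. With those clusters left out of the CD8 cells, 79 members were again lower in γδ cells and 2 higher, where 23.1% and 24.7% of all genes were, and the median was −0.48.

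**Figure D3:**
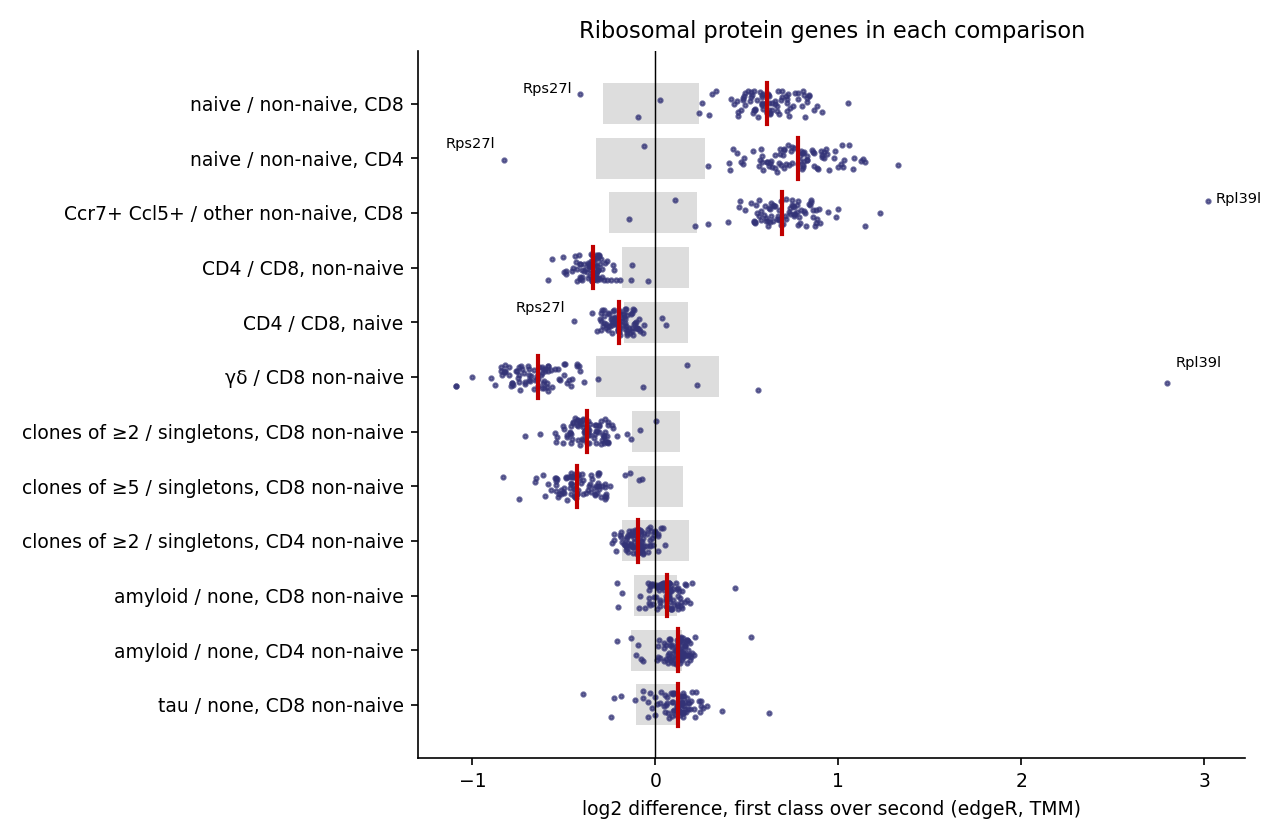
Log2 differences of the ribosomal protein genes in 12 comparisons (x axis), 1 point per gene, with the median of the genes as a red bar and the 25th to 75th percentile of all genes tested as a grey box. The medians are 0.61, 0.78 and 0.69 in the upper 3 comparisons, −0.34, −0.20, −0.64, −0.37 and −0.43 in the 5 below them, and nearer to 0 for CD4 clones, amyloid and tau; Rps27l and Rpl39l are named where they stand apart.

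T cells that share a receptor are a clone, and clone size was counted within each pool. The share of UMIs from the members was 32.4% ± 1.25 in non-naive CD8 cells that were alone in their clone, 28.0% ± 2.15 in clones of 2 to 4 cells and 26.2% ± 2.00 in clones of 5 or more (SD, n = 6 pools). A cell from a clone of 2 or more held 0.566 to 0.743 times the member UMIs of a single cell of the same pool. It also held 0.79 to 0.886 times the other UMIs, and the part of depth in the clone-size differences was not tested. In clones of 2 or more cells against single cells, 80 of 83 members were lower and 0 higher, where 9.79% of all 10651 genes tested were called lower and 9.94% higher (19.7% in either direction), with a median log2 difference of −0.37. Rps20 had 2900.0, 3518 and 4450.0 CPM in expanded cells, against 4982, 6024 and 6536 CPM in single cells (lowest, median and highest pool). The pools did not overlap, and the difference was −0.71 ± 0.04 (SE; edgeR adjusted p = 2.57e-09). Rplp0 had 3607, 4149 and 4545 CPM in expanded cells, against 5516, 6503 and 7017 CPM in single cells, a difference of −0.63 ± 0.04. Rps19, a Diamond-Blackfan anaemia gene in humans (−0.55), Rpl8 (−0.54) and Rpl35 (−0.54) followed. The 3 that did not pass were Rps27l (0.01), Rps19bp1 (−0.08) and Rpl7l1 (−0.13), with adjusted p of 0.983, 0.65 and 0.295.

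Clones of 5 or more cells gave 80 of 83 members lower and 0 higher, where 9.24% of all 10446 genes tested were called lower and 9.12% higher, and a median of −0.43. Rps20 was at −0.83 and Rplp0 at −0.74. Much of this difference went with the Ccr7+ Ccl5+ clusters, which made up 21.6% to 33.0% of the single non-naive CD8 cells and 0.765% to 1.99% of the expanded ones in the 6 pools. Without these clusters the shares were 28.8% ± 1.11, 27.8% ± 2.04 and 26.2% ± 1.99 for single cells, clones of 2 to 4 and clones of 5 or more. The expanded minus single difference was then −2.06 ± 1.05 points in place of −5.52 ± 1.56, lower in 6 of 6 pools in both. In that fit 59 members were lower in clones of 2 or more cells, where 2.91% of all genes were, with a median of −0.14 and Rps20 at −0.27 (adjusted p = 2.87e-05). For clones of 5 or more 56 were lower, where 3.31% of all genes were, with a median of −0.19. With the cells of receptors found in more than 1 pool left out, and the Ccr7+ Ccl5+ clusters kept, 80 members were lower for clones of 2 or more (7.81% of all genes) and 78 for clones of 5 or more (6.88%).

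**Figure D4:**
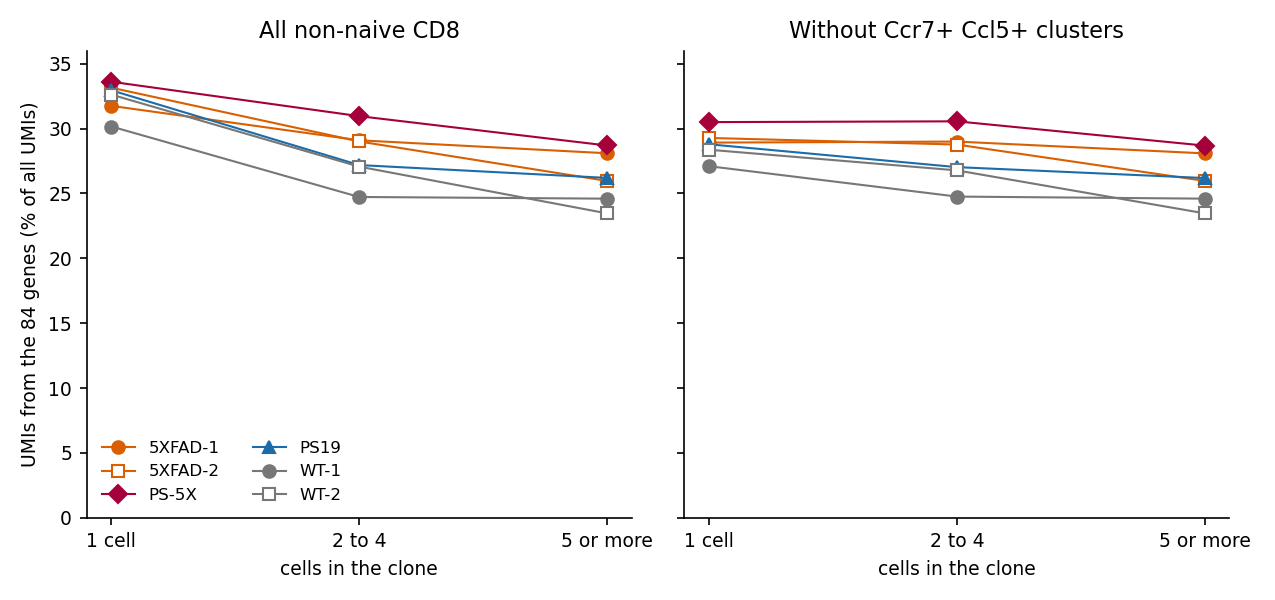
Share of all UMIs that came from the ribosomal protein genes (y axis, %) in non-naive CD8 cells by number of cells in the clone (x axis), 1 line per pool, for all non-naive CD8 cells (left) and without the Ccr7+ Ccl5+ clusters (right). The mean of the pools for single cells is 32.4% on the left and 28.8% on the right, while clones of 5 or more lie at 26.2% in both.

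In non-naive CD4 cells few members passed for clone size. In the 5 pools with 20 or more expanded cells, 1 of 83 members was lower and 0 higher, where 1.41% of all 8223 genes tested were called lower and 2.69% in either direction, and the median log2 difference was −0.09. The gene was Rps19, with 2447, 3148 and 3284 CPM in expanded cells, against 3041, 3398 and 4037 CPM in single cells, lower in 5 of 5 pools (−0.22 ± 0.06, SE; edgeR adjusted p = 0.0348). The call was lost when any pool but 5XFAD-2 was left out, and 12 members were called without 5XFAD-2. At an unadjusted p below 0.05 there were 26 of 83 members (31.3%), against 12.8% of all genes tested, and 76 of 83 differences were negative. The count was 20 with no low-count filter (1.73% of all genes lower) and 26 with classes from marker UMIs (1.56%). The share was lower in expanded than in single cells in 4 of 5 pools, by −1.18 ± 1.16 points (expanded minus single, SD).

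Amyloid was tested over pools, with both 5XFAD pools and PS-5X set against PS19 and both WT pools, and tau as a second term, which leaves 3 residual degrees of freedom. In non-naive CD8 cells 0 of 83 members passed edgeR's adjusted threshold in either direction, as did 0% of all 11362 genes tested, and DESeq2 also called 0 members. At an unadjusted p below 0.05 there were 7 members (8.43%), against 9.08% of all genes, so the members stood near the background. The median log2 difference was 0.06, and 66 of 83 members were above 0, against 49.8% of all genes. No member passed in naive CD8 cells (0.0429% of all 9322 genes called, 0.0215% in each direction; 4 members at an unadjusted p below 0.05, where 4.51% of all genes were), in non-naive CD4 cells (0.0322% of all 9310 genes; 6 members, where 5.01% of all genes were) or in γδ cells (0.127% of all 8654 genes, 0.0116% lower; 0 members, where 5.15% of all genes were). DESeq2 called 0 members in these 3 classes too. Their medians were 0.09, 0.12 and 0.09, with 69, 77 and 72 of 83 members above 0, where 50.1%, 50.3% and 49.8% of all genes were. In non-naive CD4 cells the pools of the 2 groups did not overlap for 21 members, against 10.4% of all genes, and in non-naive CD8, naive CD8 and γδ cells for 2 members each, against 12.8%, 9.4% and 10.2% of all genes. The members rose and fell together from pool to pool, so these counts are not those of independent genes.

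The share of UMIs from the members was also compared by pool. In non-naive CD8 cells it was 30.7% ± 0.517 in the amyloid pools and 29.9% ± 1.13 in the pools without amyloid, higher by 0.11 points in PS-5X against PS19, 1.31 in 5XFAD-1 against WT-1 and 0.95 in 5XFAD-2 against WT-2. In γδ cells it was 21.2% ± 0.959 in the amyloid pools and 20.4% ± 1.35 in the others, with differences of 1.02, 1.09 and 0.11 points in the same 3 pairs, and in naive CD4 cells the differences were 2.13, 1.41 and −1.19 points. In non-naive CD4 cells it was 26.0% ± 0.792 in the amyloid pools and 24.5% ± 0.393 in the pools without amyloid, higher by 2.63 points in PS-5X against PS19, 1.58 in 5XFAD-1 against WT-1 and 0.43 in 5XFAD-2 against WT-2. In the non-naive CD8 cells outside the Ccr7+ Ccl5+ clusters, a subset defined after the clusters were seen, it was 28.8% ± 0.713 in the amyloid pools and 27.0% ± 0.829 in the others (SD, n = 3 pools each), higher by 1.68, 2.11 and 1.65 points in the same 3 pairs. Cluster make-up moved with this: the S1pr5, Cx3cr1 and Klrg1 cluster, which had the lowest share, made up 4.02% of these cells in PS-5X and 5.73% and 6.56% in 5XFAD-1 and 5XFAD-2, against 15.8%, 10.6% and 28.9% in PS19, WT-1 and WT-2. Within single clusters of these cells, the amyloid pool was higher in 12 of 18 pairs, which all came from the same 3 pairs of pools. The cluster differences ran from 0.191 to 3.33 points in PS-5X against PS19 and from −0.613 to 2.49 in 5XFAD-1 against WT-1. In 5XFAD-2 against WT-2 they ran from −2.15 to 0.106 points. The part of cluster make-up in the difference between amyloid pools and the others was not tested further. In naive CD8 cells the share was higher in amyloid pools in the pairs of the common run, by 1.85 points in PS-5X against PS19 and 1.75 in 5XFAD-1 against WT-1, and lower by −0.49 in 5XFAD-2 against WT-2, the pair of the separate run.

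In amyloid non-naive CD8 cells the smallest p-values, none of which passed, were those of Rps27rt, Rps15a and Rps9 among members with positive differences and of Rpl38, Rps29 and Rps28 among those with negative ones. Rps27rt had 104.8 CPM in PS-5X and 77.0 and 60.1 CPM in 5XFAD-1 and 5XFAD-2, against 78.5, 46.8 and 53.0 CPM in PS19, WT-1 and WT-2 (log2 difference 0.44 ± 0.11, SE; edgeR adjusted p = 0.225). PS-5X was the highest pool and PS19 lay above both 5XFAD pools, so the groups overlapped. Rps15a had 7647 CPM in PS-5X and 6704 and 6811 CPM in 5XFAD-1 and 5XFAD-2, against 6453, 5785 and 6147 CPM in PS19, WT-1 and WT-2, without overlap (0.20 ± 0.06, SE; adjusted p = 0.37). Rpl38, which in mice is known for its part in the translation of Hox messages, had 3374 CPM in PS-5X and 5139 and 4811 CPM in 5XFAD-1 and 5XFAD-2, against 4506, 5367 and 5283 CPM in PS19, WT-1 and WT-2 (−0.20 ± 0.08, SE; adjusted p = 0.497). PS-5X was the lowest pool by far.

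**Figure D5:**
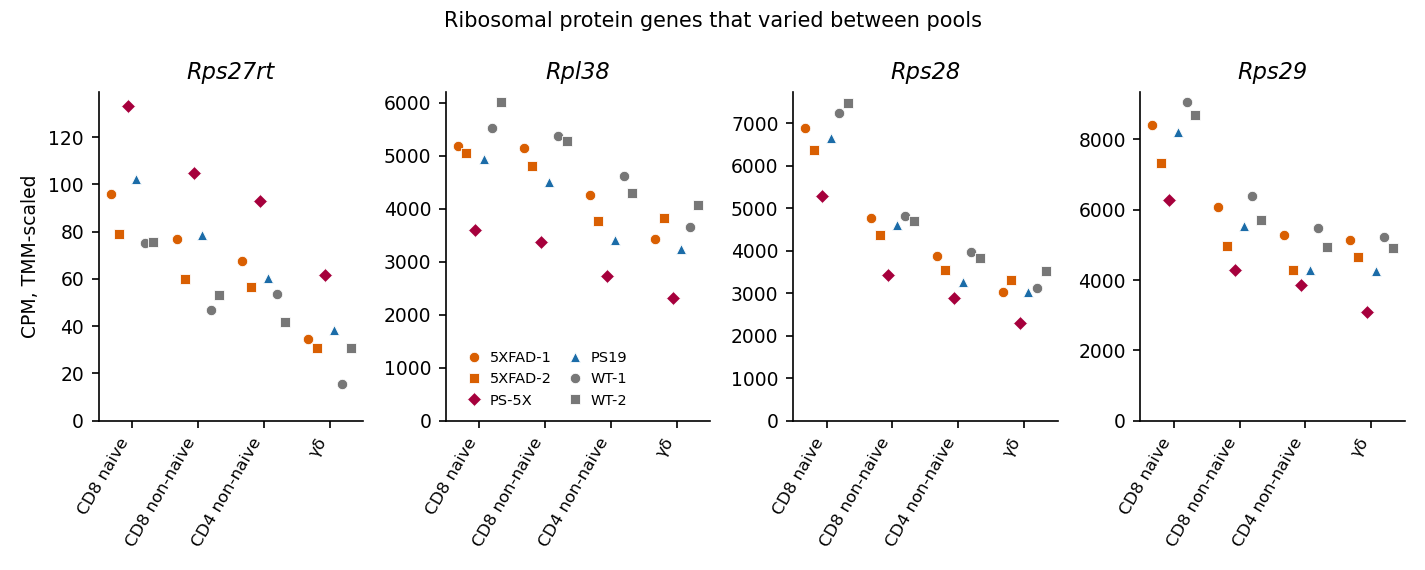
TMM-scaled CPM (y axis, each panel with its own scale from 0) of Rps27rt, Rpl38, Rps28 and Rps29 in 4 classes of T cells, 1 point per pool. PS-5X (dark red diamond) is the highest pool for Rps27rt and the lowest for Rpl38, Rps28 and Rps29 in each of the 4 classes, for example 104.8 and 3374 CPM for Rps27rt and Rpl38 in non-naive CD8 cells.

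The tau pools, PS-5X and PS19, were set against the other 4 with amyloid as the second term. In non-naive CD8 cells 0 of 83 members passed edgeR's adjusted threshold, as did 0% of all 11362 genes tested. The median log2 difference was 0.13, and 70 of 83 members were above 0, against 51.6% of all genes. At an unadjusted p below 0.05 there were 24 members (28.9%), against 6.64% of all genes, and 46 members did not overlap between the groups, against 13.3% of all genes. As for amyloid, members that rise and fall together are not independent genes, so these counts are not numbers of separate differences. Rps27rt had 104.8 and 78.5 CPM in PS-5X and PS19, against 77.0, 60.1, 46.8 and 53.0 CPM in 5XFAD-1, 5XFAD-2, WT-1 and WT-2. Both tau pools lay above the other 4 (0.62 ± 0.11, SE; edgeR adjusted p = 0.38). Rpl38 had 3374 and 4506 CPM in PS-5X and PS19, against 5139, 4811, 5367 and 5283 CPM in the same other 4 pools, both tau pools below them (−0.40 ± 0.09, SE; edgeR adjusted p = 0.64). DESeq2 called these 2 members, Rps27rt at an adjusted p of 0.0229 and Rpl38 at 0.0401. Both tau pools came from 1 run, and each tau genotype had 1 pool, so genotype and pool cannot be told apart.

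In non-naive CD4 cells 0 of 83 members passed for tau in edgeR, where 0.0752% of all 9310 genes tested did, and 6 members had an unadjusted p below 0.05, against 4.96% of all genes. The groups did not overlap for 8 of the 83 members and for 1141 of the 9310 genes. The median log2 difference was 0.07, with 60 of 83 members above 0, where 50.8% of all genes were. Rpl38 had 2723 and 3402 CPM in PS-5X and PS19, against 4254, 3779, 4619.7 and 4306 CPM in 5XFAD-1, 5XFAD-2, WT-1 and WT-2 (−0.48 ± 0.10, SE; adjusted p = 0.129). With the sequencing run as a block its difference was −0.54 with an adjusted p of 0.0412, the 1 member called there. DESeq2 also called Rpl38 alone (adjusted p = 0.0206).

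Genes around the ribosome moved with the members to different extents. Fau and Rack1, ribosomal proteins that the name rule misses, were both higher in naive CD8 and in naive CD4 cells and both lower in γδ cells, in non-naive CD4 against CD8 cells and in expanded CD8 clones. Rack1, a scaffold on the small subunit, differed by 0.57 between naive and non-naive CD8 cells. Of 37 translation factors, 21 rose and 0 fell in naive CD8 cells (median 0.21), where 21.7% of all genes rose and 24.1% fell, and 23 rose and 3 fell in naive CD4 cells (18.7% and 21.5% of all genes). In γδ cells 2 rose and 20 fell (25.3% and 23.5%), and in expanded CD8 clones 0 rose and 20 fell (9.94% and 9.79%). Eef1b2, a part of the elongation factor exchange complex, rose by 0.79 in naive CD8 and 0.92 in naive CD4 cells, and Tpt1 by 0.63 and 0.76. Eif4ebp1, a repressor of cap-dependent initiation, fell by 1.38 in naive CD4 cells and rose by 1.74 in γδ cells (adjusted p = 1.71e-05 and 1.51e-10).

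Of 48 ribosome biogenesis genes, 21 rose and 3 fell in naive CD8 cells (median 0.16; 21.7% and 24.1% of all genes), and 41 rose and 2 fell in the Ccr7+ Ccl5+ cells against other non-naive CD8 cells (20.7% and 21.6% of all genes). Npm1, a nucleolar chaperone, rose by 0.56 in naive CD8 cells and by 0.83 in the Ccr7+ Ccl5+ cells, while Myc, which drives ribosome biogenesis, fell by 0.55 and by 0.29. Mitochondrial ribosomal proteins, which belong to a separate ribosome, gave these counts: 14 of 78 rose and 10 fell in naive CD8 cells (median 0.05), where 21.7% and 24.1% of all genes did, 11 rose and 6 fell in naive CD4 cells (18.7% and 21.5%), and 4 rose and 16 fell in γδ cells (25.3% and 23.5%). In the Ccr7+ Ccl5+ cells 26 rose and 3 fell (20.7% and 21.6%), and in expanded CD8 clones 0 rose and 11 fell (9.94% and 9.79%). In CD4 against CD8 cells 3 rose and 17 fell among non-naive cells (16.7% and 15.4%), and 0 rose and 13 fell among naive ones (9.83% and 9.97%).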

How the data were processed

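The authors deposited raw UMI counts for each gene in each barcode of 6 pools, made with Cell Ranger 6.0.1 per the submitters' processing notes. Receptor tables, also deposited, list contigs with their UMI counts and clonotypes with their cell counts. Whether reads were thinned to equal depth between pools is not given in the sources used here; libraries were made with a 5′ kit, per the labels' protocols. The filters on cells were 500 detected genes as a minimum and 10% mitochondrial UMIs as a maximum, and the highest Scrublet scores (scanpy 1.11.5) were removed up to 0.8% per 1000 barcodes, 6 to 325 cells per pool. Cells were clustered with Leiden (leidenalg 0.10.2, 2000 variable genes, 30 components, 15 neighbours, resolution 1.0). Clusters were named from marker lists, 3 or more markers in at least 50% of cells. UMIs were summed per pool and class (20 or more cells) and fitted in R 4.3.3 by the quasi-likelihood method of edgeR 4.0.16, after filterByExpr and TMM scaling, with Benjamini-Hochberg adjustment over all genes tested and a threshold of 0.05, with pool as a block within pools and amyloid and tau as terms between pools. The low-count filter kept 83 or 84 of the 84 members in each fit, and Rpl39l was the one lost where 83 were tested.

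Sums held 145677 to 22675796 UMIs, and the biological coefficient of variation was 3.88% to 12.7%. SD are over pools, SE are of the fit, and shares carry counting error that is small beside the spread of pools. On simulated data the fits recovered 59.6% of genes changed by 0.5 (log2) and 92.9% of genes changed by 1 between naive and non-naive CD8 cells, 30.3% and 73.5% for the gap between lineages, and 46.5% and 79.0% for amyloid in non-naive CD8 cells. False calls were 7, 8 and 6 in these 3 comparisons. The changed genes were drawn at random from all genes tested and varied independently, so these rates are not those of the members. In each comparison the text names, of members that pass and move the same way in every pool pair, the 5 largest rises and falls, or with none passing the 3 smallest p-values in each direction; paralogs, P stalk genes and other well-known members are named beside these, and Rps12 (for its small rise) and the members named as not passing were chosen after their values were seen. A few genes that this rule would name are not reported here. Members and lists were chosen with earlier results of these data known. DESeq2 1.42.0, other scalings and filters, other class rules, left-out pools, cells of middle depth, shared receptors left out and the run as a replicate block were tried as alternatives. RefSeq promoters are from build GRCm38.p6, and sequences of genes without an entry are not used here.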

Additional observations from a re-analysis of the deposited data

Results flagged for a closer look

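In non-naive CD8 cells, Rpl22 in WT-1 stood apart from the other pools: 1931 CPM, where the other 5 pools had 2182 to 2218 CPM. Rpl13a in PS-5X stood apart on the high side, at 4704 CPM, where the other 5 pools had 3679 to 3994 CPM. Such a gap was looked for in 37 sets of 6 pools, and these 2 were flagged. The rate by chance was taken as about 1 in 20, which needs independent sets. These sets came from the same 6 pools and are not independent, so whether the number flagged differs from chance was not tested. The naive effect differed between CD4 and CD8 cells for 47 members with a more positive effect in CD4 and for 1, Rps27l, with a more negative one (log2 difference −0.42), by the test of the difference itself; the count of 47 was 2 with the Ccr7+ Ccl5+ clusters left out, 4 in cells of middle depth, 5 with classes from marker UMIs and 1 with no pool block.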

How the results depend on the processing

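Of the counts of called members and the share differences under all alternatives, 216 stayed within the tolerated range and 27 did not. The number of members whose naive effect differed between lineages, 48, was 5 with classes from marker UMIs, 2 with no pool block, 4 in cells of middle depth, 7 with the Ccr7+ Ccl5+ clusters left out (Rps20 then at −0.0527, against 0.27) and 23 to 49 with a pool left out. CD4 against CD8 naive gave 77 members, 21 with no pool block and 50 in cells of middle depth. CD4 clone size gave 1 member, 0 with DESeq2, with its size factors or with no pool block, 2 with total UMIs, 20 with no filter, 26 with classes from marker UMIs and 0 to 12 with a pool left out. Amyloid in non-naive CD8 cells gave 0, but 1 (Rps27rt) with no filter or with the replicate block and those clusters left out. Tau gave 0, but 2 with DESeq2 and 3 with no filter in non-naive CD8 cells, and 1 with DESeq2, total UMIs, no filter or the replicate block in non-naive CD4 cells; the replicate block, in which the run stands for the pool number, left the other counts at 0. The numbers pair pools of the same run only, so the block is a run term. Shares moved to 11.7 points (middle depth) and 12.3 points (clusters left out) for naive minus non-naive CD8, to 10.5 points (marker UMIs) for CD4, to −8.25, −8.11 and −7.11 points (marker UMIs, middle depth, clusters left out) for γδ minus non-naive CD8, and to −2.06 points (clusters left out) for expanded minus single cells. The causes were not tested. Scaling by total UMIs moved the median of all genes by −0.23 in naive CD8, −0.25 in naive CD4 and Ccr7+ Ccl5+ cells, and by 0.12 in γδ and 0.11 in expanded CD8 cells; member medians were then 0.39, 0.53, 0.45, −0.51 and −0.27, with the same signs. Of the named members' values, 1276 kept direction and call, 18 lost the call, 11 gained it and 1 reversed. Depth limits Rpl39l most (96 UMIs in all), and with 3 residual degrees of freedom small differences between pools can be missed.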
